A study of Rattus norvegicus with 12 samples.

Results

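Antiviral interferon-stimulated genes were followed in rat inner medullary collecting duct (IMCD) cells, epithelial cells from deep in the kidney, grown in primary culture, which can hold other cell types of the tissue, while the osmolality of the medium was kept high or lowered. A list of 48 genes was matched by symbol to the probe sets of the array, and 43 of the 48 were measured, each by 1 probe set, among 14506 genes in all. Ddx58, Parp14, Gbp4, Xaf1 and Rnf213 were not listed under these symbols and were dropped. Ddx58, which encodes the RNA sensor RIG-I, stands in the gene table of the array as Rig1, a synonym in RefSeq. It was left out of all counts, and its log2 changes on lowering osmolality were 0.06 at 24 h and -0.11 at 48 h, neither past the test.

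All cells came from kidneys of male SD rats aged 7 weeks and spent 4 days at 640 mOsm/kg, a hyperosmolar medium of the kind these cells meet in the inner medulla. They were then kept at 640 mOsm/kg or moved to 300 mOsm/kg, near the osmolality of plasma, for 24 or 48 h, which gave 4 groups of 3 samples with 1 Affymetrix rat gene array each. For 1 group at each time the sample descriptions carry a code that names a slightly different osmolality, and the values in the titles and protocols are used here. The groups kept at 640 were the controls of their time, and no sample taken before the medium was changed was analysed here. Nothing in the labels tells whether each sample of a group had its own animal or culture. The p-values therefore reflect the variation among these samples alone, and that variation may be technical.

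Interferons are secreted proteins that cells release on sensing viral nucleic acid. Their receptors act through Janus kinases on a transcription factor complex, with Stat2 and Irf9 among its subunits, that binds the interferon-stimulated response element (ISRE) in the promoters of antiviral genes. The proteins made from these genes bind viral RNA, block viral entry or assembly, attract lymphocytes or, as with Usp18, dampen the signal again. Stat2 and Irf9 were members of the list.

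The deposited values are log2 intensities, 1 per probe set. The medians of the 12 arrays lay between 6.81 and 7.58, so each array was centred on its median and the common median of 7.09 was added back. At 24 h, replicate 1 at 300 and replicate 3 at 640 had medians of 6.89 and 6.90, while the other 24 h arrays lay between 7.43 and 7.58 and the 48 h arrays between 6.81 and 6.97. Each array at 640 resembled 1 array at 300 of its time, not always of its own number. Deviations from the group mean correlated at 0.58 at 24 h and 0.63 at 48 h for replicate 1 at 640 with replicate 3 at 300. The values were 0.84 and 0.80 for replicate 2 with replicate 2, and 0.83 and 0.78 for replicate 3 at 640 with replicate 1 at 300. These are descriptions over 14506 genes that are not independent, and no fit used this matching. Of 16 collecting duct markers, 13 lay above the median of the arrays on average. Fibroblast markers rose with time (3 of 12 at 640 and 4 of 12 at 300), and the sum of 16 macrophage markers on the linear scale was 1729 to 2359 in the 640 arrays at 24 h and 2366 to 3584 in those at 48 h, and 1483 to 2164 and 2115 to 3144 in the 300 arrays. In bulk samples, fewer cells of a type and less RNA per cell cannot be told apart.

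RefSeq (build GRCr8) gave a promoter for 33 of the 43 genes, and none for Adar, Dhx58, Ifit1, Ifit2, Isg15, Mx2, Oas2, Samd9l, Usp18 and Zbp1. The core of the ISRE, GAAANNGAAA on either strand, stood within the 250 bases before the listed start in 20 of the 33 (60.6%), against 3.41% of 33469 promoter windows in the rat genome. Complete windows are shown for 3 genes whose listed start is the first base of the gene, because their genes changed at 48 h in opposite directions, Cxcl10 and Ifit3 downward and Gbp2 upward. Capitals mark the ISRE core, and a match of letters is a description of the sequence, not a mapped binding site. The windows are Cxcl10 at chr14:15988816-15989065 (plus strand), Ifit3 at chr1:241527076-241527325 (plus strand) and Gbp2 at chr2:234005477-234005726 (plus strand).
Cxcl10: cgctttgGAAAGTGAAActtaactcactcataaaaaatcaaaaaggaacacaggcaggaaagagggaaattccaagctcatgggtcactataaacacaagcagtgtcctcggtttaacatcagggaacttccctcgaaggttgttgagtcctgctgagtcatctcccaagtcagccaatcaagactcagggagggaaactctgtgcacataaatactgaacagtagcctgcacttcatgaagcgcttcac
Ifit3: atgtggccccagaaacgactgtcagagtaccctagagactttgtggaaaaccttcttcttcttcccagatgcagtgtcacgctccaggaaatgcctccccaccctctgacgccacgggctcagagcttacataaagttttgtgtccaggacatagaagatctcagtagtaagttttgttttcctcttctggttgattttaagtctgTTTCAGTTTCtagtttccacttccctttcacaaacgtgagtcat
Gbp2: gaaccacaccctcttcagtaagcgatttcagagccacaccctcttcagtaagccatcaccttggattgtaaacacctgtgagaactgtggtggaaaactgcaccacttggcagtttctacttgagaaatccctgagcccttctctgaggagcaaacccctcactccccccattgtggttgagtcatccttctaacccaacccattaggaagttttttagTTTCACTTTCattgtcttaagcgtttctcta

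In 18 of the 33 genes the window overlapped the span of the gene, because RefSeq lists a start further upstream. For 4 such genes that fell at 48 h, the 30 bases around the match are shown: Oas1a at chr12:41330418-41330447 (plus strand), Oas1b at chr12:41395889-41395918 (minus strand), Irf7 at chr1:205800073-205800102 (minus strand) and Rsad2 at chr6:48788248-48788277 (minus strand), all in GRCr8.
Oas1a: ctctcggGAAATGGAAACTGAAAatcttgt
Oas1b: ttcccggGAAATGGAAACTGAAAaccctat
Irf7: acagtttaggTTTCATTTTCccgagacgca
Rsad2: ctggttcaacTTTCATTTTCagaaaacaga

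Oas1a and Oas1b carried the same pair of overlapping ISRE cores, 26 to 41 and 44 to 59 bases before the listed start. By the RefSeq spans, the matches of Oas1a and Irf7 lay inside the gene, and those of Oas1b and Rsad2 lay in front of it. In Ifit3 and Gbp2 the core lay close to the start (35 to 44 and 22 to 31 bases before it), and in Cxcl10 it lay 234 to 243 bases before it. The windows of Mx1 and Oasl held no such match, which says only that these letters are absent from these windows. The core stood in 6 of the 8 genes with a promoter that fell at 48 h and in 14 of the 25 others, Gbp2 among them.

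**Figure D1:**
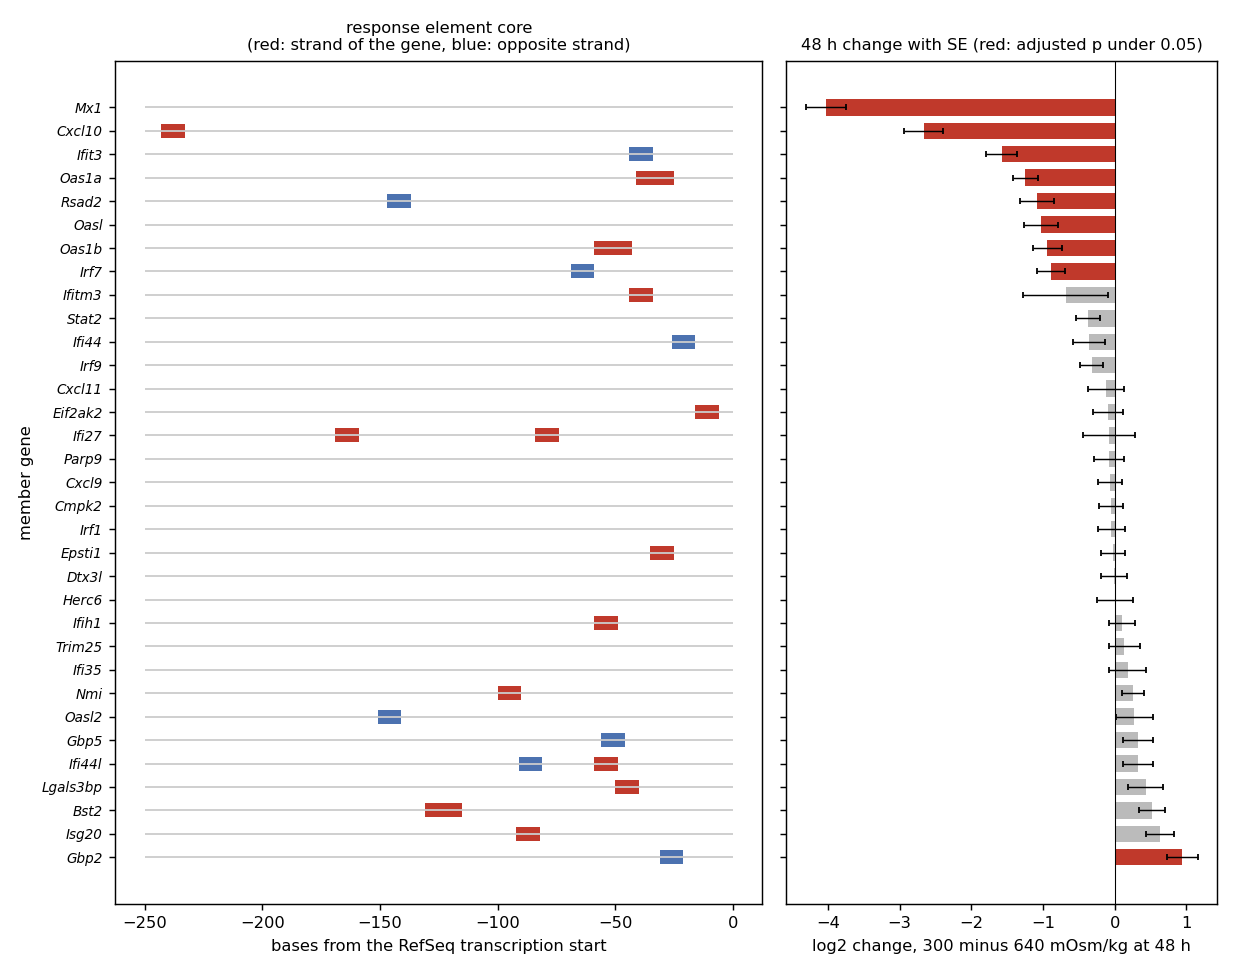
Position of the ISRE core in the 250 bases before the RefSeq start (left, bases from the start, red on the strand of the gene and blue on the opposite strand) and log2 change of 300 minus 640 mOsm/kg at 48 h with its standard error (right, 3 arrays per group, red where the adjusted p was under 0.05) for the 33 genes with a promoter. Genes with the core stand at both ends of the order, from Cxcl10 (-2.66) to Gbp2 (0.95), and Mx1 (-4.03) has none in its window.

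At 48 h, 9 of the 43 genes fell on lowering osmolality and 1 rose: Mx1, Cxcl10, Ifit1, Ifit3, Oas1a, Rsad2, Oasl, Oas1b and Irf7 fell, and Gbp2 rose. Of all 14506 genes 1.85% were called in this comparison (limma, Benjamini-Hochberg adjusted p under 0.05), 1.33% as lower and 0.524% as higher. At 24 h, 1 of the 43 genes, Usp18, rose and 0 fell, against 0.655% of all genes called. The change at 48 h differed from that at 24 h in 4 genes, Mx1, Cxcl10, Ifit3 and Oas1a, all toward lower values, and these were the only genes called for this difference among the 14506 (0.0276%).

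These counts moved with the scaling and with single arrays. At 48 h, 4 genes (Mx1, Cxcl10, Ifit1 and Ifit3) were called on the deposited values without centring, beside 104 of all genes in place of 269. When every probe set of the array was tested, 5 were called, the same genes and Oas1a. Leaving out 1 array gave 5 to 10 calls, beside 158 to 296 among all genes. The count was 5 without replicate 1 at 640 or replicate 2 at 300 of that time and 6 without replicate 1 at 300. Mx1, Cxcl10, Ifit1 and Ifit3 kept their calls in all of these fits, and Oas1a in all but the uncentred one. At 24 h Usp18 was not called without centring, and the difference between times was called for 0 of the 4 genes without centring, without the pair of 24 h arrays with low medians, or without replicate 3 at 300 and 24 h.

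Over the 43 genes the median log2 change was 0.21 at 24 h, beside -0.04 over all genes, and -0.06 at 48 h, beside 0.02. By sign, 30 of the 43 were higher at 300 than at 640 mOsm/kg at 24 h (40.9% of all genes), and 15 of the 43 at 48 h (54.6% of all genes). A higher value at 24 h with a lower one at 48 h was seen in 17 of the 43, or 39.5%, and in 10.1% of all genes. The change at 48 h lay above that at 24 h in 12 of the 43 (60.1% of all genes). At 48 h the arrays of the 2 osmolalities did not overlap for 21 of the 43 genes, 14 lower and 7 higher, while 14.8% of all genes showed no overlap (7.02% lower, 7.83% higher). At 24 h there was no overlap for 14 of the 43, 13 higher and 1 lower, against 8.56% of all genes (3.7% higher, 4.86% lower).

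**Figure D2:**
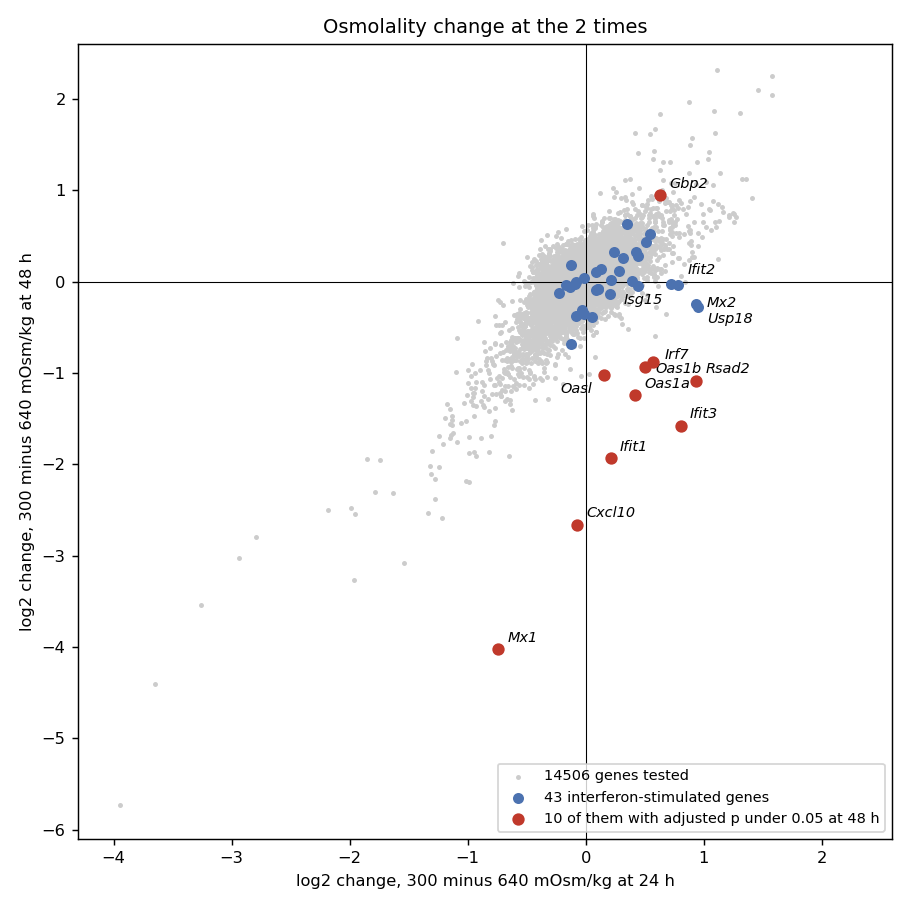
Log2 change of 300 minus 640 mOsm/kg at 24 h (horizontal) against that at 48 h (vertical) for 14506 genes (grey), the 43 interferon-stimulated genes (blue) and the 10 of these called at 48 h (red). The red points of the 9 genes that fell lie below 0 at 48 h, with 24 h changes between -0.74 (Mx1) and 0.94 (Rsad2), and Gbp2 lies above 0 at both times.

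The Mx proteins are large GTPases that trap viral nucleoprotein, and Mx1 had the largest change of the 43 genes. At 24 h its centred log2 intensity was 9.38, 7.97 and 8.64 in the 640 arrays and 7.69, 7.79 and 8.30 in the 300 arrays. At 48 h it was 10.32, 10.01 and 10.15 at 640 and 5.87, 6.18 and 6.35 at 300. The 640 arrays at 48 h held the 3 highest of the 12 values and the 300 arrays at 48 h the 3 lowest, whereas the groups overlapped at 24 h. Mx1 was 16.3-fold lower at 300 than at 640 mOsm/kg at 48 h (log2 -4.03, SE 0.28, adjusted p = 1.76e-06). At 24 h the log2 change was -0.74 (SE 0.28, adjusted p = 0.592). Leaving out a 24 h array at 640 gave -0.38 (replicate 1) or -1.09 (replicate 2), neither past the test, and the change was called with array weights (-1.04, adjusted p = 0.00227).

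The difference between those changes, -3.29 on the log2 scale (SE 0.40, adjusted p = 0.00995), passed the test. Between 24 and 48 h Mx1 fell 3.46-fold at 300 mOsm/kg (log2 -1.79, adjusted p = 0.019), while at 640 its mean was 8.67 at 24 h and 10.16 at 48 h (adjusted p = 0.0633). The change with time at 640 passed the test with the replicate number as a block within each osmolality (adjusted p = 0.0134). That setting was chosen after seeing the data. The fall at 48 h held without any 1 array (highest adjusted p 4.19e-05). Without replicate 3 of the 300 group at 24 h the difference between times had an adjusted p of 0.0554, and the fall with time at 300 lost its call without that array or without replicate 1 or 2 at 300 and 48 h (adjusted p 0.0728 to 0.147).

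Mx2, the paralogue of Mx1, lies near it on the same chromosome in GRCr8 (Mx1 at chr11:50269056-50294699, Mx2 at chr11:50375101-50399373). It was measured at 9.12, 9.01 and 9.21 at 640 and 8.70, 9.02 and 8.90 at 300 mOsm/kg at 48 h, a log2 change of -0.24 (SE 0.25, adjusted p = 0.999). At 24 h it read 9.06, 7.77 and 8.42 at 640 and 9.28, 9.24 and 9.54 at 300. The 24 h groups did not overlap, yet the change of 0.94 (SE 0.25, adjusted p = 0.151) did not pass the test. A difference between Mx1 and Mx2 was not tested.

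The guanylate-binding proteins are GTPases that attack membranes around intracellular pathogens, and Gbp2 was the member that rose at 48 h. It read 7.42, 7.04 and 6.94 at 640 and 7.63, 7.62 and 8.05 at 300 mOsm/kg at 24 h. At 48 h the values were 7.27, 7.46 and 7.19 at 640 and 7.80, 8.61 and 8.35 at 300. At both times every 300 array stood above every 640 array. The rise at 48 h was 1.93-fold (log2 0.95, SE 0.22, adjusted p = 0.0343), and the 24 h change was 0.63 (SE 0.22, adjusted p = 0.424).

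The rise of Gbp2 was not called when any 1 of the 640 arrays at 48 h was left out, nor without replicate 2 or 3 at 300 of that time (adjusted p 0.0649 to 0.207), nor was it on uncentred values (0.94, adjusted p = 0.358). Its relative Gbp5, on the same chromosome, was 0.42 higher at 24 h and 0.32 higher at 48 h (adjusted p = 0.993 and 0.94).

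**Figure D3:**
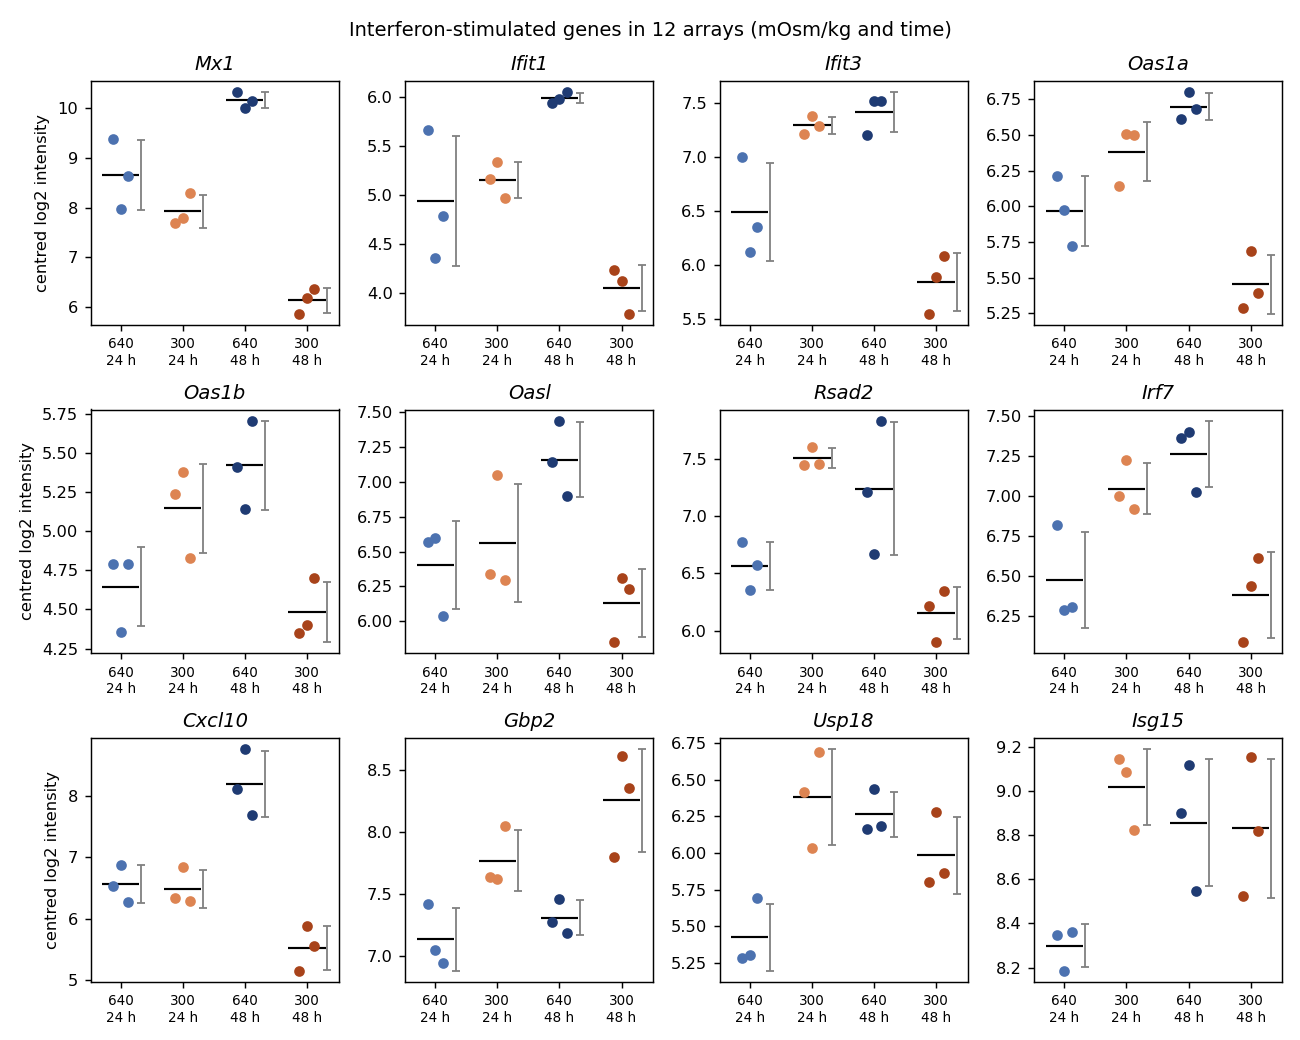
Centred log2 intensity of the 11 genes called in any comparison and of Isg15 in each of the 12 arrays, by osmolality (mOsm/kg) and time (points, 3 arrays per group, with the group mean as a black line and the SD as a grey bar). From Mx1 to Cxcl10 the 300 arrays at 48 h lie below the 640 arrays at 48 h, and for Gbp2 they lie above them.

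IFIT proteins bind viral RNA that lacks the marks of the cell's own messages. Ifit1 read 5.67, 4.37 and 4.79 at 640 and 5.16, 5.33 and 4.97 at 300 mOsm/kg at 24 h. The 48 h values were 5.94, 5.98 and 6.05 at 640 and 4.24, 4.12 and 3.79 at 300. The 24 h groups overlapped, and at 48 h the 300 arrays were the lowest of all 12. Ifit1 was 3.82-fold lower at 300 at 48 h (log2 -1.94, SE 0.26, adjusted p = 0.000532) after a change of 0.21 at 24 h (adjusted p = 1.00). Its difference between times was -2.15 (SE 0.36, adjusted p = 0.0723) and did not pass the test.

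Ifit3, which forms complexes with other IFIT proteins, read 7.00, 6.12 and 6.35 at 640 and 7.22, 7.38 and 7.29 at 300 mOsm/kg at 24 h. The 48 h values were 7.20, 7.52 and 7.52 at 640 and 5.55, 5.89 and 6.08 at 300. Its arrays did not overlap at either time, with the 300 arrays the higher at 24 h and the lower at 48 h. The fall at 48 h was 2.98-fold (log2 -1.58, SE 0.22, adjusted p = 0.000769), and the 24 h change was 0.81 (SE 0.22, adjusted p = 0.16).

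The difference between times for Ifit3 was -2.38 (SE 0.31, adjusted p = 0.0101). At 300 mOsm/kg Ifit3 fell 2.74-fold from 24 to 48 h (log2 -1.46, adjusted p = 0.011), and at 640 it was 0.93 higher at 48 h (adjusted p = 0.218). As for Mx1, the difference between times had an adjusted p of 0.0554 without replicate 3 of the 300 group at 24 h. The fall with time at 300 lost its call without that array or replicate 1 or 2 at 300 and 48 h (adjusted p 0.0515 to 0.0852).

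The 3 genes lie side by side in GRCr8, Ifit2 at chr1:241515735-241521799, Ifit3 at chr1:241527326-241532469 and Ifit1 at chr1:241565197-241567262. Ifit2 was not called in any comparison. It read 6.97, 6.25 and 6.57 at 640 and 7.60, 7.11 and 7.45 at 300 mOsm/kg at 24 h, a change of 0.79 (SE 0.20, adjusted p = 0.122). The 48 h means were 7.40 and 7.37, a change of -0.03 (SE 0.20, adjusted p = 0.999). The 24 h groups did not overlap, and the 48 h groups did.

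Oligoadenylate synthetases make a messenger molecule that activates the RNA-degrading enzyme RNase L. Oas1a read 6.21, 5.97 and 5.72 at 640 and 6.15, 6.51 and 6.50 at 300 mOsm/kg at 24 h. By 48 h the values were 6.61, 6.80 and 6.68 at 640 and 5.29, 5.69 and 5.39 at 300. The groups overlapped at 24 h and lay fully apart at 48 h, where Oas1a was 2.37-fold lower at 300 (log2 -1.24, SE 0.18, adjusted p = 0.00101). The 24 h change was 0.42 (SE 0.18, adjusted p = 0.781).

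The difference between times for Oas1a was -1.66 (SE 0.25, adjusted p = 0.0354), and its fall from 24 to 48 h at 300 was 1.91-fold (log2 -0.93, adjusted p = 0.0469). The former call was lost in 9 of 12 fits without 1 array (adjusted p 0.0877 to 0.184) and kept without replicate 1 of either 24 h group or replicate 2 at 300 and 48 h. The latter was also lost in 9 of 12 (adjusted p 0.0568 to 0.253) and kept without replicate 2 or 3 at 640 and 24 h or replicate 1 at 300 and 24 h.

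Oas1b, a close relative of Oas1a on chromosome 12, read 4.79, 4.36 and 4.79 at 640 and 5.24, 5.38 and 4.83 at 300 mOsm/kg at 24 h. At 48 h it read 5.41, 5.14 and 5.71 at 640 and 4.35, 4.40 and 4.70 at 300. Its arrays did not overlap at either time, higher at 300 at 24 h and lower at 48 h. The fall at 48 h was 1.92-fold (log2 -0.94, SE 0.20, adjusted p = 0.0258), and the 24 h change was 0.50 (adjusted p = 0.697). The probe sets of such relatives may share signal, which was not tested. The 48 h call was lost without replicate 1 or 3 at 640 or replicate 1 or 2 at 300 of that time (adjusted p 0.102 to 0.146).

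Oasl, a member of the family without the synthetase activity, read 6.57, 6.60 and 6.04 at 640 and 6.34, 7.05 and 6.29 at 300 mOsm/kg at 24 h. The 48 h values were 7.14, 7.44 and 6.90 at 640 and 5.85, 6.31 and 6.23 at 300. Only at 48 h did the arrays of the groups not overlap, with a fall of 2.04-fold at 300 (log2 -1.03, SE 0.23, adjusted p = 0.0353). That call was lost in 6 of 12 fits without 1 array (adjusted p 0.0523 to 0.172): replicate 1 at 640 and 24 h, replicates 1 and 2 at 640 and 48 h, and each 300 array at 48 h.

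Its neighbour Oasl2 was 0.28 higher at 300 at 48 h (SE 0.25, adjusted p = 0.999) and 0.44 higher at 24 h. Oas2, a larger synthetase, changed by 0.02 at 48 h (adjusted p = 0.999). Its mean level was dim, at percentile 18 of all genes, so a fall could be hard to see. Of the 5 members of the family measured, 3 thus fell at 48 h and 5 were higher by sign at 24 h. At 24 h 0 of the 5 passed the test (limma, 2 at an unadjusted p under 0.05). Of all 43 genes, 14 had an unadjusted p under 0.05 at 24 h (13 higher, 1 lower) and 14 at 48 h (3 higher, 11 lower). The share of all genes under that threshold was not counted, so unadjusted counts here and below have no background beside them.

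Rsad2 encodes viperin, an enzyme that makes a nucleotide which stops viral RNA polymerases. At 24 h it read 6.77, 6.36 and 6.57 at 640 and 7.45, 7.60 and 7.46 at 300 mOsm/kg. At 48 h the values were 7.21, 6.67 and 7.83 at 640 and 6.22, 5.90 and 6.34 at 300. The 300 arrays lay above all 640 arrays at 24 h and below all of them at 48 h. The change was 0.94 at 24 h (SE 0.24, adjusted p = 0.127) and -1.09 at 48 h (SE 0.24, adjusted p = 0.0293), a 2.12-fold fall.

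From 24 to 48 h Rsad2 fell 2.55-fold at 300 (log2 -1.35, SE 0.24, adjusted p = 0.0333), and the difference between times was -2.02 (adjusted p = 0.0723). The fall at 48 h was not called without replicate 1 or 3 at 640 or any 300 array of that time (adjusted p 0.0625 to 0.16). The fall with time at 300 lost its call in 8 of 12 fits without 1 array (adjusted p 0.05 to 0.163): each 300 array at either time and replicate 1 at 640 of either time. Cmpk2, a nucleotide kinase whose gene lies beside Rsad2 on chromosome 6, read -0.05 at 48 h and 0.44 at 24 h as log2 changes (adjusted p = 0.999 and 0.592).

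Cxcl10 is a chemokine that draws activated T cells. At 24 h it read 6.54, 6.88 and 6.27 at 640 and 6.34, 6.85 and 6.29 at 300 mOsm/kg. At 48 h it read 8.11, 8.76 and 7.69 at 640 and 5.15, 5.88 and 5.55 at 300. The 24 h groups overlapped throughout, and at 48 h the 640 arrays were the highest and the 300 arrays the lowest of the 12. The fall at 48 h was 6.33-fold (log2 -2.66, SE 0.27, adjusted p = 4.69e-05), beside -0.07 at 24 h (SE 0.27, adjusted p = 1.00).

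Cxcl10 was the member that rose with time at 640 mOsm/kg, 3.09-fold from 24 to 48 h (log2 1.63, SE 0.27, adjusted p = 0.0362). At 300 its change was -0.96 (adjusted p = 0.228). With the replicate number as a block within each osmolality, a setting chosen after seeing the data, the adjusted p was 0.0269. The difference between times was -2.59 (SE 0.38, adjusted p = 0.0333). This call was lost in 7 of 12 fits without 1 array (adjusted p 0.0858 to 0.139), and that of the rise in 6 of 12 (0.0577 to 0.192). Both calls were lost without replicate 1 or 3 at 640 and 24 h, replicate 3 at 300 and 24 h, replicate 1 at 640 and 48 h or replicate 3 at 300 and 48 h. The difference between times was lost also without replicate 2 at 300 and 24 h or replicate 1 at 300 and 48 h, and the rise also without replicate 2 at 640 and 48 h.

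Cxcl9 and Cxcl11, chemokines of the same receptor, flank Cxcl10 on chromosome 14 in GRCr8 (Cxcl11 at 15973728-15976503, Cxcl10 at 15989066-15991263, Cxcl9 at 16007166-16012077). They changed by -0.06 and -0.12 at 48 h (SE 0.17 and 0.25, adjusted p = 0.999 for both) and by -0.13 and -0.22 at 24 h. The mean level of Cxcl9 was dim, at percentile 12.5 of all genes, so a fall could be hard to see. That of Cxcl11 was at percentile 34.7. The Cxcl11 arrays at 24 h did not overlap (5.64 to 5.79 at 640 and 5.41 to 5.54 at 300), and it was the member that stood lower at 300 without overlap at that time.

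Irf7 is the transcription factor that amplifies interferon production. It read 6.82, 6.29 and 6.31 at 640 and 7.00, 7.22 and 6.92 at 300 mOsm/kg at 24 h. The values at 48 h were 7.37, 7.40 and 7.03 at 640 and 6.09, 6.44 and 6.61 at 300. The 300 arrays lay above all 640 arrays at 24 h and below all of them at 48 h. The fall at 48 h was 1.85-fold (log2 -0.88, SE 0.20, adjusted p = 0.0304), and the 24 h change was 0.57 (SE 0.20, adjusted p = 0.439). Without replicate 1 or 2 of either osmolality at 48 h the call was lost (adjusted p 0.0905 to 0.165).

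The other transcription factors and their partners were not called in any comparison. Stat2 and Irf9, subunits of the complex that binds the ISRE, were 0.37 and 0.32 lower on the log2 scale at 300 at 48 h (group means 8.85 and 8.48 for Stat2, 8.70 and 8.39 for Irf9). Neither pair of groups overlapped, and the adjusted p was 0.594 and 0.708. Irf1, which drives interferon gamma targets, changed by -0.16 and -0.04 at 24 and 48 h, and Nmi, a Stat partner, was 0.31 and 0.26 higher. Ifi35, which binds Nmi, changed by -0.13 and 0.18.

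Isg15 is a ubiquitin-like protein that is joined to other proteins, and Usp18 removes it and blocks the interferon receptor. Usp18 read 5.29, 5.30 and 5.69 at 640 and 6.41, 6.04 and 6.69 at 300 mOsm/kg at 24 h. At 48 h it read 6.16, 6.44 and 6.19 at 640 and 5.81, 6.28 and 5.86 at 300. The 24 h groups did not overlap, and Usp18 rose 1.94-fold at 300 (log2 0.95, SE 0.20, adjusted p = 0.0484). At 48 h the change was -0.28 (adjusted p = 0.999).

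The rise of Usp18 stood at the edge of the threshold. It lost its call in 10 of 12 fits without 1 array (adjusted p 0.0585 to 0.283) and kept it without replicate 2 of the 300 group at 24 or 48 h. Within the pair of 24 h arrays with low medians the 300 value was 0.72 higher, and within the other 24 h arrays 1.07 higher, which are values with no test.

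Isg15 read 8.35, 8.19 and 8.36 at 640 and 9.15, 9.09 and 8.82 at 300 mOsm/kg at 24 h, without overlap. The change was 0.72 (SE 0.20, adjusted p = 0.166). At 48 h the group means were 8.86 and 8.83. Herc6, a ligase for Isg15 in rodents, was 0.39 higher at 24 h (adjusted p = 1.00) and 0.00 at 48 h.

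No call was made among the RNA sensing and editing genes. The 6 measured were Ifih1 and Dhx58, sensors of the RIG-I family, the RNA-activated kinase Eif2ak2, the editing enzyme Adar, the nucleic acid sensor Zbp1 and Trim25, a ubiquitin ligase that activates RIG-I. Their log2 changes lay between -0.01 and 0.28 at 24 h and between -0.13 and 0.14 at 48 h, and 0 of the 6 were called in any of the 5 comparisons (limma), nor did any reach an unadjusted p of 0.05. Adar had the highest of these changes at 24 h, with 8.81, 8.83 and 8.87 at 640 and 9.22, 9.09 and 9.05 at 300 mOsm/kg, without overlap (adjusted p = 1.00).

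Among membrane restriction factors, Bst2 (tetherin), which holds budding virus on the cell surface, was 0.54 higher at 24 h and 0.52 higher at 48 h (SE 0.18, adjusted p = 0.396 and 0.257). Its 300 arrays lay above all 640 arrays at both times, with 7.37, 7.40 and 7.43 against 8.08, 8.05 and 7.71 at 24 h. At 48 h they were 7.01, 7.59 and 7.37 against 7.94, 7.95 and 7.65. Isg20, an RNA exonuclease, was 0.35 and 0.63 higher (adjusted p = 1.00 and 0.183), without overlap at 48 h.

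Ifitm3, which blocks fusion of virus with the cell, had the largest spread of the 43 genes, with SDs between 0.918 and 1.04 in the 4 groups. Its lowest arrays were replicate 1 at 300 (7.46 at 24 h and 7.67 at 48 h) and replicate 3 at 640 (7.62 and 8.37), against 8.60 to 10.19 in the others. Its log2 changes were -0.13 and -0.68 (SE 0.59, adjusted p = 1.00 and 0.999). These arrays are among those that resembled each other over all genes.

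The remaining 8 interferon-induced genes, Ifi27, Ifi44, Ifi44l, Parp9, Dtx3l, Samd9l, Lgals3bp and Epsti1, changed by -0.09 to 0.51 at 24 h and by -0.39 to 0.43 at 48 h, with 0 called by limma and 1 at an unadjusted p under 0.05 at each time. Samd9l, an inhibitor of viral translation, was lowest at 48 h, with 8.65, 9.04 and 9.05 at 640 and 8.40, 8.57 and 8.62 at 300 mOsm/kg. Lgals3bp, a secreted glycoprotein, was highest at 48 h, with 10.10, 10.05 and 9.88 at 640 and 10.36, 10.49 and 10.47 at 300. Both pairs of groups lay apart, and neither change passed the test (adjusted p = 0.489 and 0.805).

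**Figure D4:**
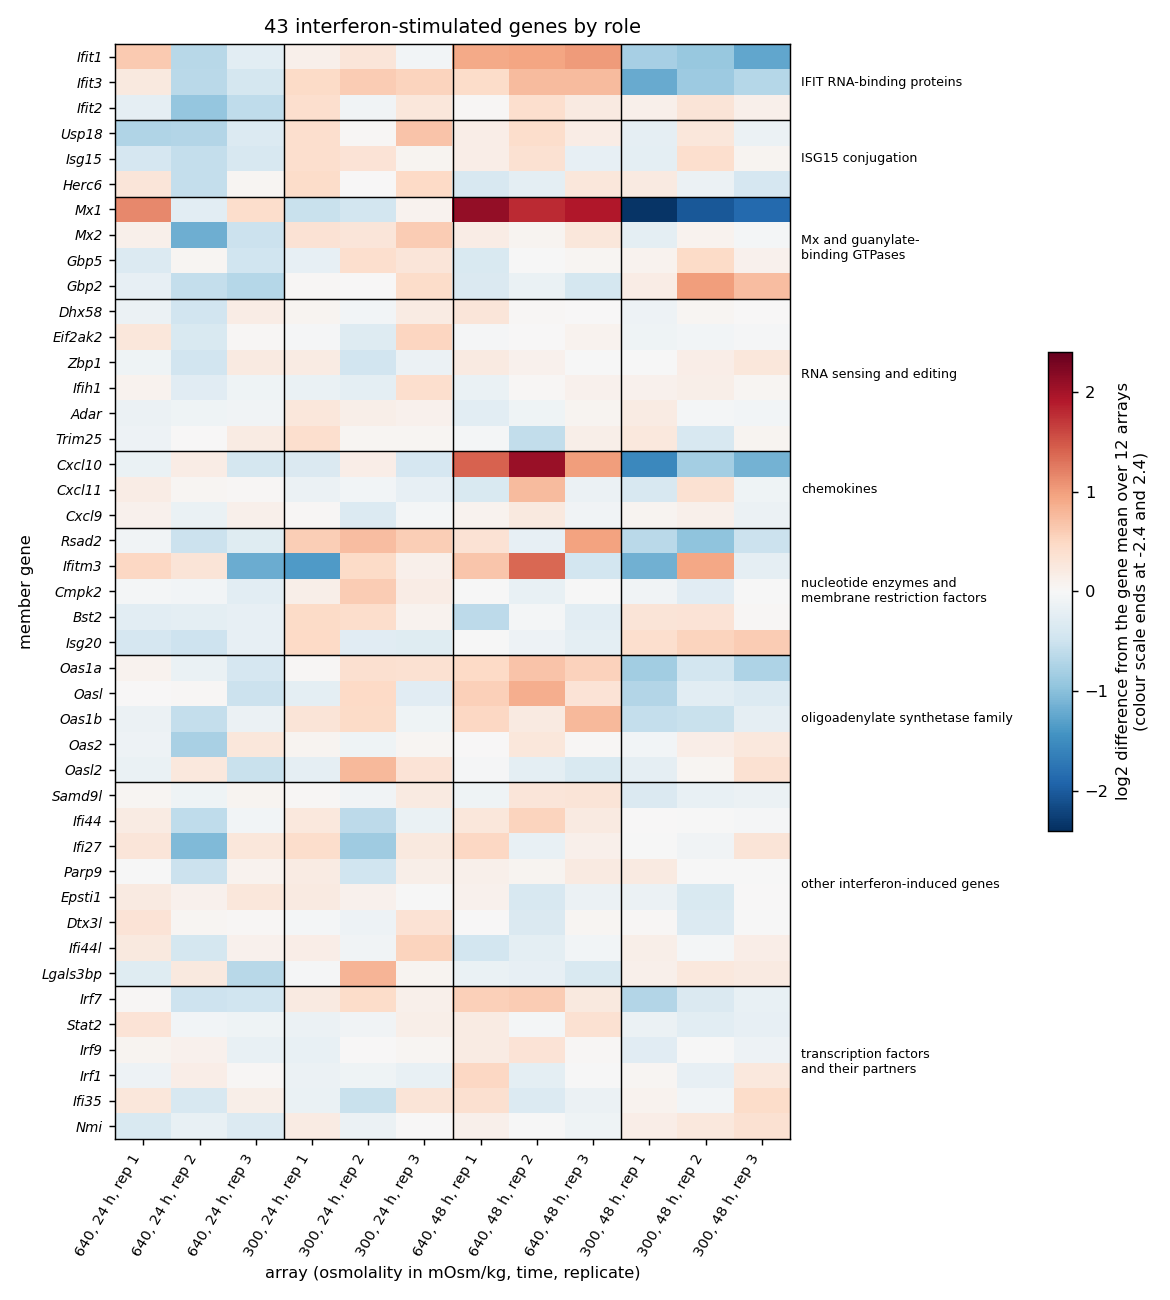
Log2 difference of each of the 43 genes from its own mean over 12 arrays, by role, with arrays in columns (osmolality in mOsm/kg, time and replicate). Red is above and blue below that mean. The lines of Mx1, Ifit1, Ifit3, Cxcl10, Oas1a and Irf7 are red in the 640 arrays and blue in the 300 arrays at 48 h, and the RNA sensing genes stay pale throughout.

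Over time, 4 of the 43 genes fell between 24 and 48 h at 300 mOsm/kg (Mx1, Ifit3, Rsad2 and Oas1a) and 0 rose, against 0.255% of all genes called, 0.0896% as lower. With the replicate number as a block within each osmolality, chosen after seeing the data, 5 fell at 300, Cxcl10 being the added gene. Of all genes 87 were then called in place of 37. At 640 mOsm/kg 1 of the 43, Cxcl10, rose and 0 fell, against 0.138% of all genes. By position, 13 of the 43 stood higher at 48 h than at 24 h without overlap at 640 and 1 lower, beside 9.58% of all genes (4.95% higher, 4.63% lower). At 300 the count was 11, all lower, beside 12.1% of all genes (4.85% lower). The median change with time was 0.22 at 640 and -0.12 at 300, where all genes gave 0.00 and 0.05. By sign, 33 of the 43 were higher at 48 h than at 24 h at 640 (50.3% of all genes), and 15 of the 43 at 300 (58.6% of all genes). In the 9 genes that fell with osmolality at 48 h, the log2 change with time lay between 0.67 (Rsad2) and 1.63 (Cxcl10) at 640 and between -0.43 (Oasl) and -1.79 (Mx1) at 300. The comparisons over time share their arrays with those of osmolality at the same time, so they are the same values seen from another side.

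Genes elsewhere on the interferon route were read from lists drawn up by function. Of 12 interferon genes 5 were measured, and 0 were called by limma in any of the 5 comparisons (0 for osmolality at an unadjusted p under 0.05). With time at 640, 2 had an unadjusted p under 0.05 (limma), 1 higher (Ifnb1) and 1 lower. All 5 were dim, with group means between 3.31 (Ifng) and 5.54 (Ifna5) beside the common median of 7.09, so changes could be hard to see. Ifnb1, interferon beta, had group means of 3.76 and 3.99 at 24 h and 4.14 and 3.98 at 48 h (640, then 300), changes of 0.23 and -0.15. Of 15 receptor and JAK-STAT genes measured 0 were called (2 at an unadjusted p under 0.05 at 48 h), and their changes at 48 h lay between -0.55 and 0.12 with a median of 0.02. Of 18 nucleic acid sensors and genes on the route to interferon 0 were called (2 at an unadjusted p under 0.05 at 24 h and 1 at 48 h, all lower). Their medians were -0.09 at 24 h, where 3 were higher by sign (40.9% of all genes) and 15 lower, and -0.04 at 48 h. Irf3, on this list, was 0.42 lower at 300 at 24 h and 0.61 lower at 48 h (limma, adjusted p = 0.754 and 0.129). Of 23 NF-kB target cytokines and adhesion genes 0 were called (2 at an unadjusted p under 0.05 at 24 h and 3 at 48 h), and their 48 h median was -0.04.

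Of 32 further interferon-induced effectors measured, 0 were called for osmolality (4 at an unadjusted p under 0.05 at 24 h and 6 at 48 h), for which the medians were 0.10 at 24 h and -0.02 at 48 h. Ifitm1, a relative of Ifitm3, rose with time at both osmolalities (log2 1.56 at 640, adjusted p = 0.004, and 1.03 at 300, adjusted p = 0.049). The 9 falls and 1 rise of the antiviral genes at 48 h stood beside 0 calls for osmolality in these 5 lists. Of all genes 1.85% were called at 48 h and 0.655% at 24 h, so 0 calls in lists of these sizes lies near those shares. The antiviral genes were chosen with earlier results of these data known. Whether the lists differ was not tested.

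**Figure D5:**
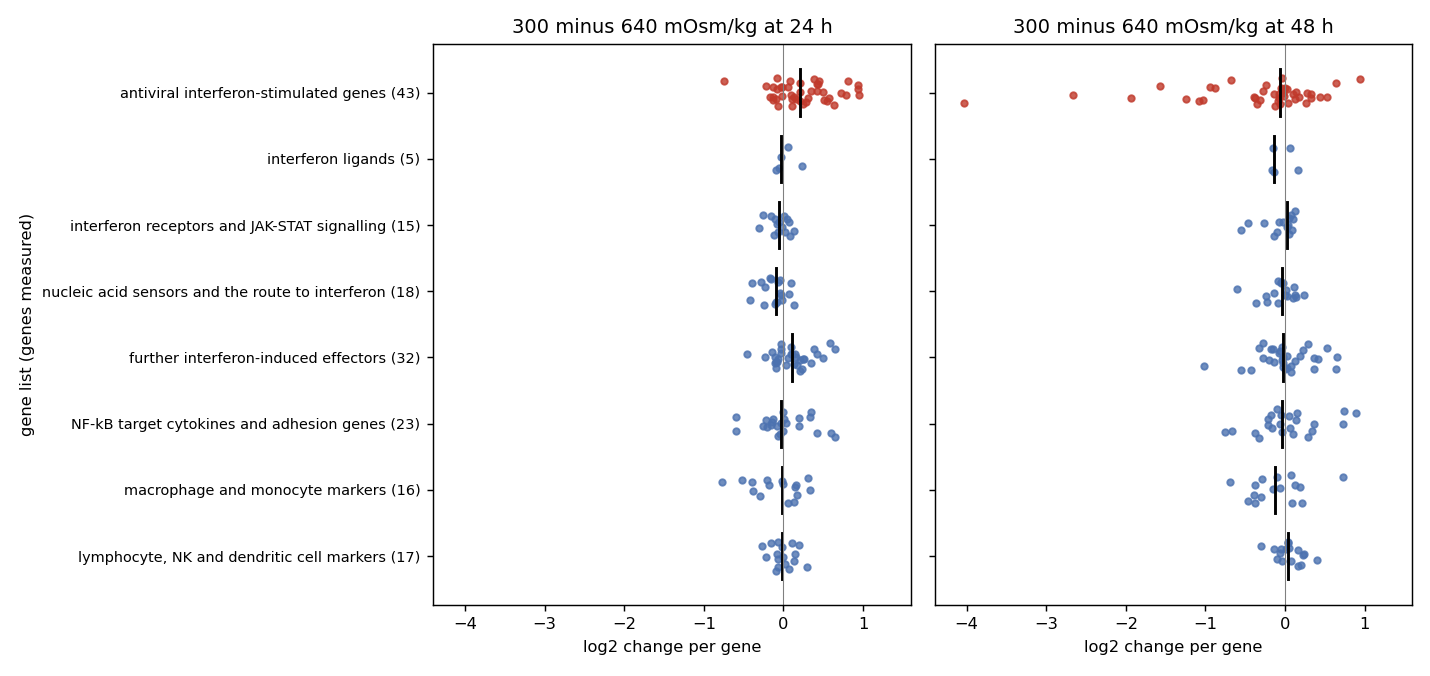
Log2 change of 300 minus 640 mOsm/kg at 24 h (left) and 48 h (right) for each gene of the antiviral list (red) and of 7 other lists (blue), with the list median as a black line and the number of genes measured in brackets. At 48 h the antiviral genes from Mx1 (-4.03) to Oas1a (-1.24) lie below every gene of the other lists.

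Markers of cells that could carry these messages were set beside the results. Of 16 macrophage and monocyte markers, 1 (Csf1r, log2 -0.69) fell at 48 h (1.33% of all genes) and 0 rose, and 5 lay above the array median. By sign, 6 were higher at 300 at 48 h (54.6% of all genes) and 10 lower, with changes from -0.69 to 0.73 (C1qa). Their summed level at 48 h was 2366 to 3584 at 640 and 2115 to 3144 at 300 mOsm/kg, ranges that overlapped. Such a sum follows its brightest genes and can hide opposite changes. Of 17 lymphocyte, NK and dendritic cell markers 0 were called (1 at an unadjusted p under 0.05 at 48 h) and 0 lay above the array median, with sums of 457 to 526 at 640 and 475 to 504 at 300. Endothelial markers lay at 1638 to 2062 and 1265 to 1547 (Emcn fell), and limb epithelium markers at 3252 to 4403 and 912 to 1017 (Aqp1 and Slc12a1 fell).

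Fibroblast and pericyte markers summed to 7325 to 8751 at 640 and 9946 to 11202 at 300 at 48 h (Postn rose). Of the collecting duct markers, Aqp2, Aqp3, Avpr2 and Slc14a2 fell at 48 h. The sums over all 16 collecting duct markers, not over these genes alone, were 35497 to 41229 at 640 and 32602 to 38311 at 300. No marker was at 0 in any array, but no deposited value was below 1.12, so this does not show that each was expressed. The part of these shifts in the changes of the antiviral genes was not tested.

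Other sequence features of the 33 promoter windows were counted in the same way. The gamma-activated site, TTCNNNGAA, a motif found in interferon gamma targets, stood in 8 of the 33 windows (24.2%) and in 7.67% of all windows. It was found in 2 of the 8 genes that fell at 48 h, Oas1a and Oas1b. The tonicity-responsive enhancer, the site of the osmolality-sensing factor Nfat5, stood in 4 of the 33 (12.1%), Gbp2, Gbp5, Ifi27 and Ifit3, and in 5.17% of all windows. Both strands were searched for each motif, and no test was made of any of these shares.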

How the data were processed

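RNA of 12 samples, 3 in each of 4 groups, was measured on Affymetrix rat gene arrays. The deposited values are log2 intensities per probe set, which the authors made with RMA in Affymetrix Power Tools, per the submitters' processing notes; no version is listed among the sources used here. Just 1 symbol named 15310 of the 27596 probe sets; 323 carried several symbols, and 11963 are not listed in the annotation table given. The probe set with the highest mean stood for each of 14506 genes. Arrays were centred on their medians over these genes. Group means were compared in 1 fit of limma 3.58.1 (R 4.3.3) with 8 residual degrees of freedom, and p-values were adjusted by Benjamini-Hochberg over all genes, with a threshold of 0.05. A fold is 2 to the power of the log2 change. The number of arrays limits the precision.

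The members and lists were chosen with earlier results of these data known. The genes named with all their values were the members called in any of the 5 comparisons. The other members were given by role, by ranges and counts or with single values where a role called for them. Of the lists, called genes were named, and Ifnb1 and Irf3 were added after their values were seen. The alternatives were no centring, centring on all probe sets, cyclic loess, quantile normalization, array weights, a filter on dim genes, the mean of the probe sets of a gene, every probe set, limma with a trend and robust variances, only the groups compared, a replicate block, no low-median pair, and leaving out each array. Replicate numbers paired the 24 and 48 h arrays at 300 (correlations of deviations 0.46, 0.43 and 0.12), less clearly at 640 (0.03, 0.46 and 0.36), so a block within each osmolality was added. The code was tested on simulated data. Promoters came from RefSeq (GRCr8).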

Additional observations from a re-analysis of the deposited data

Results flagged for a closer look

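The osmolality change of 4 genes differed between 24 and 48 h by a test of the difference itself, the interaction term of the limma fit. The differences were -3.29 for Mx1 (SE 0.40, adjusted p = 0.00995), -2.38 for Ifit3 (SE 0.31, adjusted p = 0.0101), -2.59 for Cxcl10 (SE 0.38, adjusted p = 0.0333) and -1.66 for Oas1a (SE 0.25, adjusted p = 0.0354), all on the log2 scale. In Ifit3 the 300 arrays moved from above all 640 arrays at 24 h to below all of them at 48 h, while the 24 h groups of Mx1, Cxcl10 and Oas1a overlapped.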

How the results depend on the processing

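Counts below are of antiviral genes called, with those of all genes in brackets. Without centring they were 0 (13, of which 2 higher and 11 lower) at 24 h, 4 (104) at 48 h, 0 (0) for the difference between times, and 0 (0) for the change with time at either osmolality, for which the median of all genes then shifted by -0.41 at 640 and -0.38 at 300. With array weights they were 10 (1595) at 24 h, 9 higher and 1 lower (532 and 1063), 11 (499) at 48 h, 6 (10) for the difference, 7 (986) with time at 640 and 11 (1907) at 300. With every probe set tested they were 0 at 24 h, 5 at 48 h, 2 (2) for the difference, 0 at 640 and 2 (18) at 300. Centring on all probe sets gave 2 (2) for the difference and 0 with time at 640, and cyclic loess and quantile normalization gave 2 (2) for the difference. Fitting only the groups compared gave 0 (10) at 24 h and 2 with time at 640. Without the pair of 24 h arrays with low medians there were 0 (17) at 24 h, 0 (0) for the difference and 0 (34) at 640. At 300, 219 of all genes were then called. A count left out here was of similar size to that of the main fit. The cause of these shifts was not tested.

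Leaving out 1 array gave 0 to 1 (26 to 78) calls at 24 h, 5 to 10 (158 to 296) at 48 h, 0 to 4 (0 to 4) for the difference, 0 to 2 (6 to 19) with time at 640 and 0 to 5 (7 to 50) at 300. The direction turned for uncalled values only. With array weights, Ifit1 and Oasl were -0.51 and -0.16 at 24 h, and Gbp2 with time at 640 was -0.053 (-0.24 without centring). Leaving out 1 array, the 24 h change of Ifit1 lay between -0.074 and 0.58, turning without replicate 2 at 640. That of Oasl lay between -0.088 and 0.29, turning without replicate 3 at 640 (-0.025) or replicate 2 at 300. That of Cxcl10 lay between -0.25 and 0.086, turning without replicate 2 at 640, replicate 1 at 300 (0.0052) or replicate 3 at 300 (0.031). Of single-gene values called, 131 lost their call over all settings and 354 did not. The latter include the values of Usp18 within the 24 h arrays of low or higher medians, which had no test. Of those not called 30 gained a call.

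Across osmolality, samples with the same replicate number did not all deviate together (correlations of -0.13, 0.84 and -0.21 at 24 h and -0.23, 0.80 and -0.22 at 48 h). With the replicate number as a block, the counts were 2 (159) at 24 h, 10 (403) at 48 h, 6 (6) for the difference, 2 (35) with time at 640 and 5 (92) at 300. Calls gained with this block (limma) were Rsad2 at 24 h (adjusted p = 0.0475) and Ifit1 and Rsad2 for the difference (0.0428 and 0.0257). With time, Mx1 at 640 (0.0316) and Cxcl10 at 300 (0.0235) gained one. With a block within each osmolality, chosen after seeing the data, the counts were 4 (4) for the difference, 2 (38) with time at 640 and 5 (87) at 300. With 3 arrays per group, small changes of dim probe sets could not be resolved.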
